A study of Homo sapiens with 4 samples.

Results

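The *NR2F* genes and the core genes of the retinoic acid pathway were examined for H3K27ac in the neuroblastoma line SK-N-BE(2)C with and without depletion of *SNHG1*. The 10 genes were chosen by name, of 20005 protein-coding genes, and comprise the orphan receptors *NR2F1*, *NR2F2* and *NR2F6*, the retinoic acid receptors *RARA*, *RARB* and *RARG*, the retinoid X receptor *RXRA*, the retinoic acid-binding protein *CRABP2* and the retinoic acid-degrading enzymes *CYP26A1* and *CYP26B1*. Each gene was assigned every peak that overlapped its GENCODE gene body extended by 10 kb on either side, which gave 68 of the 63699 peaks of control cells and 59 of the 50119 peaks of *SNHG1*-depletion cells. Extending the window to 50 kb gave 121 and 109 peaks.

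SK-N-BE(2)C is a human neuroblastoma line in which *MYCN* is amplified. The control cells (sgCtrl) had received Cas9 with a non-targeting guide RNA and are labelled wildtype, and the *SNHG1*-depletion cells (sgSNHG1) had received Cas9 with a pair of guide RNAs against *SNHG1*, a long non-coding RNA gene, and are labelled SNHG1 knockout. Both were selected with puromycin and grown as sorted clones, so the groups also differ as clones. Which clones entered the ChIP-seq is not given in the sources used here. Despite the knockout label, the paper states that *SNHG1* was repressed but not fully knocked out. Each group had 2 samples, which the authors combined before they called peaks, so each group is 1 list of peaks and all of the comparisons are descriptions of the 2 lists without a test across replicates.

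Retinoic acid is made in cells from retinol and binds RAR proteins, which pair with RXR proteins on DNA and switch from holding target genes off to turning them on. CRABP2 carries retinoic acid to the nucleus, and the CYP26 enzymes break it down. NR2F proteins, also called COUP-TFs, bind similar DNA elements, can pair with RXR and are known as regulators of neural crest and neuronal development, while retinoic acid is known to drive neuroblastoma cells toward differentiation. H3K27ac is an acetylation of histone H3 that marks active promoters and enhancers, and it was mapped here by ChIP-seq.

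The depth per sample is unknown. The number of fragments over each summit could be recovered from the deposited values, with medians of 55 (sgCtrl) and 52 (sgSNHG1). Across 40292 pairs of overlapping peaks the median log2 ratio of summit fragments (sgSNHG1 over sgCtrl) was -0.21, and the ratios given below are relative to this median. Their 95% intervals cover counting error only, not the spread between samples. Scaling to the genome-wide background of each list instead would move every ratio by -0.14. Over the body of the targeted gene, *SNHG1*, the sgCtrl list held 1 peak, with 76 fragments at its summit, and the sgSNHG1 list held 0. Promoter peaks were present in both lists at 8 of 8 adrenergic neuroblastoma genes (such as *HAND2* and *ISL1*), at 3 of 4 mesenchymal genes and at 2 of 6 genes of other cell types, *EPCAM* and *CDH1*, and were in neither list at the rest, such as *PTPRC*, *ALB* and *PECAM1*.

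Sequences of selected peaks and promoter elements were taken from the GRCh38 genome. The first 4 are the 300 bases around the summit of a peak that only 1 list held. In each case it was the only such peak of its kind within 10 kb of that gene. At *CRABP2* and *RARG* the kind was a promoter peak (within 3 kb of a start site of the gene), and at *NR2F2* and *NR2F1* it was a peak away from the start sites. Letters in capitals mark nuclear receptor half-sites, on either strand. They are the consensus AGGTCA and its common variants, which are GGGTCA and likewise AGTTCA and likewise GGTTCA. All windows are given 5′ to 3′ on the plus strand.
*CRABP2* upstream peak, sgSNHG1 list, chr1:156706551-156706850: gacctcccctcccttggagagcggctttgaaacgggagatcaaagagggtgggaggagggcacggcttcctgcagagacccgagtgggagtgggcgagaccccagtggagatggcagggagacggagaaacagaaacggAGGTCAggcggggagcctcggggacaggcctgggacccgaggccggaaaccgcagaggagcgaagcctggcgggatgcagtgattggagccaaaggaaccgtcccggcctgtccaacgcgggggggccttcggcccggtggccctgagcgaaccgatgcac
*NR2F2* downstream peak, sgSNHG1 list, chr15:96340737-96341036: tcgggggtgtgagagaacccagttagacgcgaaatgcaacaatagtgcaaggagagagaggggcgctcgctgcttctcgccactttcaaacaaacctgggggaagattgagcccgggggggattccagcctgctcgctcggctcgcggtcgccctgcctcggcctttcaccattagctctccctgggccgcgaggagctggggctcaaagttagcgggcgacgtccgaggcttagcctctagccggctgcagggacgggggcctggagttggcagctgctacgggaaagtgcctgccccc
*NR2F1* upstream peak, sgSNHG1 list, chr5:93579272-93579571: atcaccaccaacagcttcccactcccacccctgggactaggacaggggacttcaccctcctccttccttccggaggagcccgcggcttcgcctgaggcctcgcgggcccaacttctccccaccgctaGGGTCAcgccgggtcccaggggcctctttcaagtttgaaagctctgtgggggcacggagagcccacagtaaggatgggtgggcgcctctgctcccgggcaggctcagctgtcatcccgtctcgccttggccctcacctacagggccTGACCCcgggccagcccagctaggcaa
*RARG* intronic peak, sgCtrl list, chr12:53218688-53218987: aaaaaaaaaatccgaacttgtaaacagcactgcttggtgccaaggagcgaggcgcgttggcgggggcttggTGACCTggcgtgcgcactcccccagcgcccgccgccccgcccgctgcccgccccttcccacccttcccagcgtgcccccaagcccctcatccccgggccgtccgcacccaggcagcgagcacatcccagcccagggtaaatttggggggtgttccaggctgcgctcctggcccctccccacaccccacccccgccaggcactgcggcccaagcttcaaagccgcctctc
These windows were rich in G and C, at 67.0%, 64.0%, 66.7% and 69.0% in the order shown. The *CRABP2* window held 1 half-site, the *NR2F2* window 0, the *NR2F1* window 2 and the *RARG* window 1.

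Half-sites in direct repeat form the elements that these receptors bind, and a spacing of 5 bases is the classic element of a retinoic acid receptor paired with a retinoid X receptor. Repeats of the half-sites above with spacings of 1, 2 and 5 bases were searched on both strands of the 250 bases before to 50 after each start site listed by RefSeq (GRCh38.p14). The table held 18 start sites of 9 of the 10 genes, all but *NR2F6*. A repeat spaced by 5 was found at 2 of them, 1 of *RARB* and 1 of *CYP26A1*, and at 31 of all 35116 promoters (0.0883%). Repeats spaced by 1 (0.131% of all promoters) or by 2 (0.0399%) were found at 0 of the 18. Within the peaks, the repeats of any of the 3 spacings were found in 1 of 68 sgCtrl peaks of the 10 genes (1.47%, against 1.91% of all sgCtrl peaks) and in 1 of 59 sgSNHG1 peaks (1.69%, against 1.83%), and it was the same element, spaced by 5, in *RARA*. Repeats with that spacing were in 0.144% of all sgCtrl peaks and 0.13% of all sgSNHG1 peaks. The elements are shown with flanking bases.
*RARB* promoter, chr3:25428203-25428232: cgggtagGGTTCAccgaaAGTTCActcgca
*CYP26A1* promoter, chr10:93073796-93073825: ttaaagaTGAACTttgggTGAACTaattgt
*RARA* internal peak, chr17:40341646-40341675: ccaggcgAGTTCAgcgagAGTTCAgccgca
The *RARB* element began 53 bases before the start site, and the *CYP26A1* element, which reads on the opposite strand, 90 bases before it. Neither list held a peak over either element.

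Peaks were called at 6 of the 10 genes in control cells and at 7 in *SNHG1*-depletion cells. *RARB*, *CYP26A1* and *CYP26B1* had no peak within 10 kb in either list, as did 18.3% of all protein-coding genes. Of the other 7 genes, *NR2F1*, *NR2F2* and *CRABP2* had more peaks in the sgSNHG1 list and *NR2F6*, *RARA*, *RARG* and *RXRA* had fewer. Among all protein-coding genes with a peak, 18.5% had more and 45.4% had fewer. Summed over the 10 genes, the number of peaks in sgSNHG1 was 0.868 times that in sgCtrl, and the bases covered, 30162 against 31411, were 0.96 times. The whole sgSNHG1 list was also shorter, with 50119 peaks against 63699. With lists of equal size the ratio of peak numbers at the 10 genes was 1.04.

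**Figure D1:**
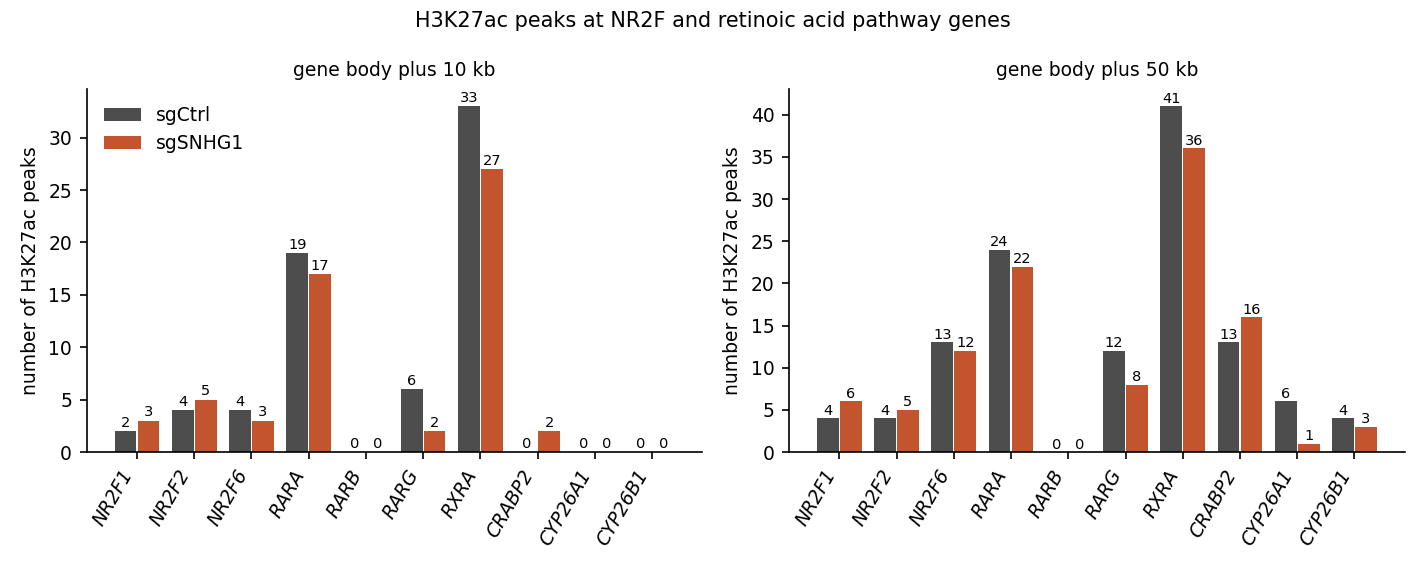
Number of H3K27ac peaks in the sgCtrl (grey) and sgSNHG1 (orange) lists for each gene, within the gene body plus 10 kb (left) and plus 50 kb (right). *RXRA* and *RARA* held most peaks in both lists, *CRABP2* had 0 in sgCtrl and 2 in sgSNHG1 within 10 kb, and *RARB* had 0 in both lists in both windows.

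Of the 68 sgCtrl peaks, 45 overlapped a peak of sgSNHG1 (66.2%, Wilson 95% interval 54.3 to 76.3%), so that 23 did not, and 38.5% of all sgCtrl peaks did not. Of the 59 sgSNHG1 peaks, 45 overlapped a peak of sgCtrl (76.3%, 64.0 to 85.3%), so that 14 did not, and 20.8% of all sgSNHG1 peaks did not. In sgCtrl 26 of 35 promoter peaks were overlapped (74.3%, against 73.8% of all promoter peaks) and 19 of 33 other peaks (57.6%, against 52.8%). In sgSNHG1 26 of 29 promoter peaks were overlapped (89.7%, against 84.6%) and 19 of 30 other peaks (63.3%, 45.5 to 78.1%, against 74.7%). Without *RXRA*, which holds 33 of the 68 peaks, 77.1% of the sgCtrl peaks were overlapped, against 61.5% of all sgCtrl peaks. At the 46 pairs of overlapping peaks in 6 of the genes, the median relative log2 ratio was 0.12, and -0.01 with scaling to the genome-wide background. The ratio was at least 1.5-fold higher in sgSNHG1 at 5 pairs (10.9%, against 9.37% of all pairs) and at least 1.5-fold lower at 1 pair (2.17%, against 6.29%). Those 5 pairs lay at *NR2F2* (2), *RARA* (2) and *NR2F1* (1), and the pair that was lower lay at *RXRA*. Of the *RARA* pairs, 1 used an sgSNHG1 peak that also overlapped another sgCtrl peak, to whose summit its own was nearer. The *RXRA* pair likewise used an sgCtrl peak that overlapped a further sgSNHG1 peak. Such pairs are not independent.

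**Figure D2:**
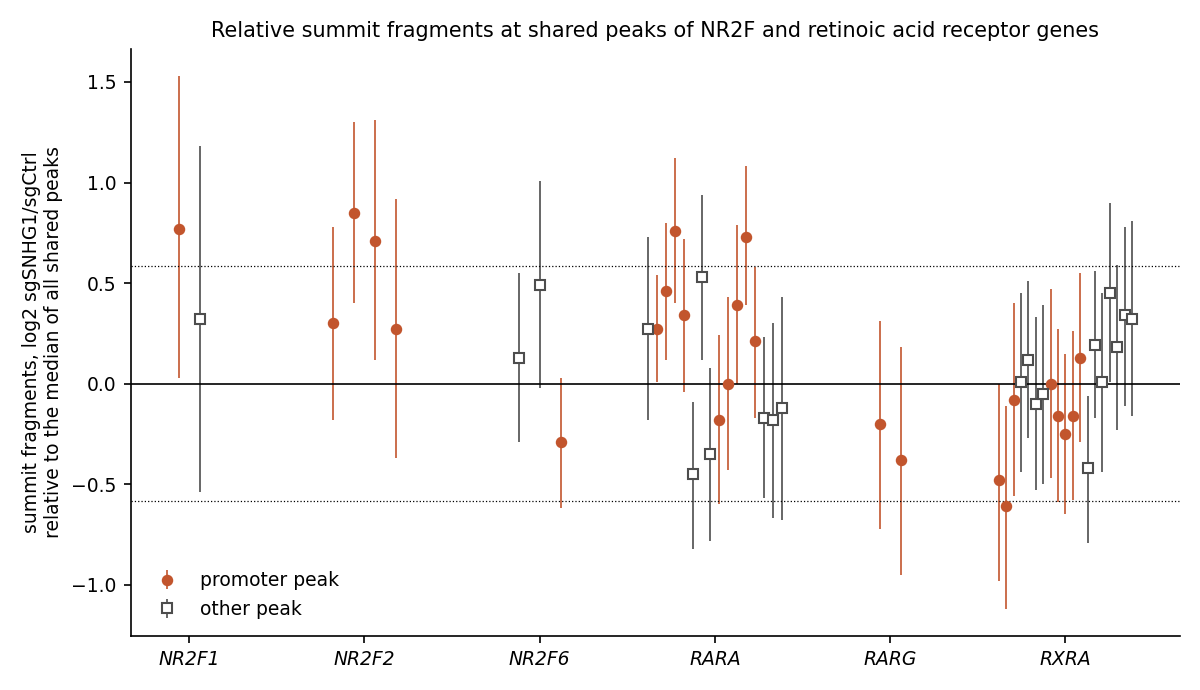
Relative log2 ratio of summit fragments (sgSNHG1 over sgCtrl) at each pair of overlapping peaks within 10 kb of the 6 genes that had one, with 95% counting intervals, in order of position within a gene. Filled circles are promoter peaks, open squares other peaks, and dotted lines mark a 1.5-fold difference. All *NR2F1* and *NR2F2* pairs lie above 0, both *RARG* pairs lie below 0, and *RARA* and *RXRA* pairs lie on both sides.

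*NR2F1* (ENSG00000175745.15, chr5:93583222-93594611, plus strand) is an orphan receptor that the study used as a marker of differentiation. Its promoter peak lay in the first exon, with the summit in the untranslated part, 1778 bp from the canonical start in sgCtrl and 1665 bp in sgSNHG1. It held 27 fragments at its summit in sgCtrl and 40 in sgSNHG1, a relative log2 ratio of 0.77 (0.03 to 1.53), which is 1.71-fold. The peak was also broader, at 498 bp against 339 bp. Its fold enrichment over the local background was 4.75 in sgCtrl and 6.76 in sgSNHG1, which moved the gene's highest peak from percentile 71.7 to 85.6 of its list. The interval just misses 0, and with so few fragments the size of the difference is poorly determined.

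A downstream peak of *NR2F1* held 24 and 26 fragments (0.32, -0.54 to 1.18). Within 50 kb, the peak at the start of the antisense gene *NR2F1-AS1* held 21 and 28 fragments (0.62, -0.25 to 1.51), and a peak 38138 bp downstream of the start held 32 and 41 (0.56, -0.14 to 1.28). All 4 ratios were positive, but only that of the promoter peak had an interval above 0, and with scaling to the genome-wide background that interval too reached below 0 (0.64, -0.10 to 1.40). The upstream peak shown above, at position -3800 relative to the start and with 24 fragments, was called in sgSNHG1 only, as was 1 more peak within 50 kb, with 22 fragments. By −log10 p the former was only the 5227th of the 10403 unmatched sgSNHG1 peaks. Peaks within 5 Mb outside the window had a median relative log2 ratio of 0.34 (25 pairs), just above the ratio of the downstream peak, and set against these neighbours the promoter ratio was 0.43 (-0.31 to 1.19), which does not exceed the counting error. The part of the surrounding region in the difference was not tested.

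*NR2F2* (ENSG00000185551.15, chr15:96325938-96340263, plus strand), the close relative of *NR2F1*, carried 4 promoter peaks in both lists, along the first 4 kb of the canonical transcript. At the second of them, over a coding exon, 70 fragments in sgCtrl stood against 109 in sgSNHG1, a relative log2 ratio of 0.85 (0.40 to 1.30), or 1.8-fold. The third peak held 43 and 61 fragments (0.71, 0.12 to 1.31). The first held 74 and 79 (0.30, -0.18 to 0.78) and the fourth 42 and 44 (0.27, -0.37 to 0.92). All 4 pairs were thus above 0, and the intervals of 2 of them excluded it.

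The local background around these 4 *NR2F2* peaks was also higher in sgSNHG1, by 0.46 to 0.49 on the relative log2 scale, and its part in the ratios was not tested. The fold enrichment divides by that background and did not rise at all 4 peaks. It was lower in sgSNHG1 at the first peak (5.68 in sgCtrl and 4.80 in sgSNHG1) and the fourth (3.14 and 2.65). At the second (5.28 and 6.56) and the third (3.23 and 3.65) it was higher. The wider region did not move with the gene. The median ratio of 117 pairs within 5 Mb was 0.01, and set against them the second peak was at 0.84 (0.39 to 1.29). Beyond the 3′ end of the gene, the sgSNHG1 list held a peak at chr15:96340760-96341117 that no sgCtrl peak overlapped. It was the 120th of 10403 such peaks by −log10 p (30.8), with 58 fragments and a fold enrichment of 6.70, the highest at the gene in that list. The list gives no value for sgCtrl there, so no fold is given. The window of the summit shown above held none of the half-sites.

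*NR2F6* (ENSG00000160113.6, chr19:17231883-17245919, minus strand), a more distant orphan receptor of the same family, did not share this pattern. Its promoter peak, over the first exon, was among the tallest of the 10 genes, with 192 fragments in sgCtrl and 136 in sgSNHG1 (-0.29, -0.62 to 0.03). The relative log2 ratio of the local background there was -0.24, and its part was not tested. The fold enrichment of that peak was 5.0 in sgCtrl and 4.56 in sgSNHG1. A second promoter peak, in an intron, held 99 fragments in sgCtrl and had no counterpart in sgSNHG1. A peak over a coding exon or the adjoining intron held 60 and 73 fragments (0.49, -0.02 to 1.01). The gene's highest fold enrichment in either list, 6.63 and 6.57, belonged to a peak at the start of the neighbouring gene *OCEL1*, which held 99 and 94 fragments (0.13, -0.29 to 0.55).

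**Figure D3:**
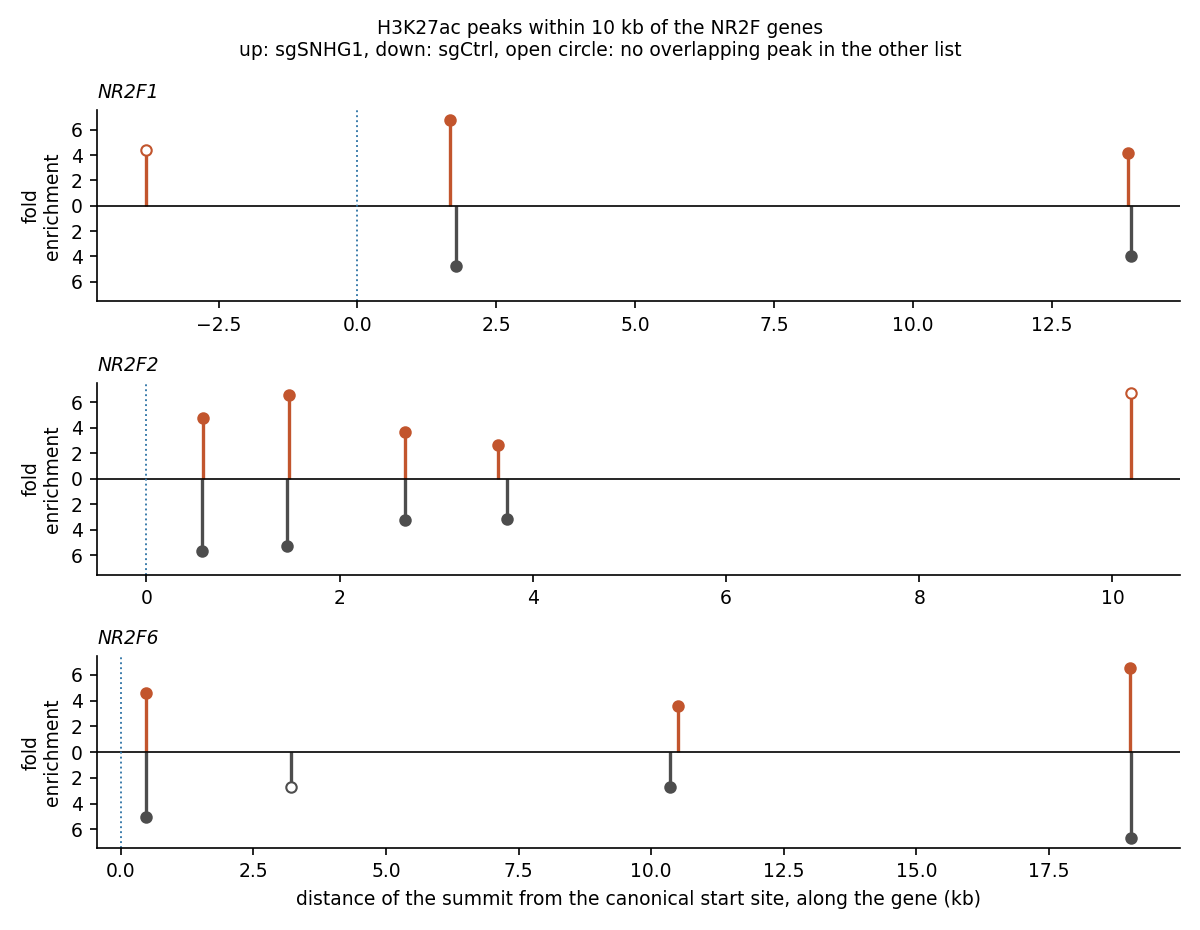
H3K27ac peaks within 10 kb of the 3 *NR2F* genes, by distance of the summit from the canonical start site (dotted line), in kb along the gene. Bars give the fold enrichment in sgSNHG1 (orange, upward) and sgCtrl (grey, downward), and open circles are peaks without an overlapping peak in the other list. The open circles are in sgSNHG1 at *NR2F1* (upstream) and *NR2F2* (downstream, 6.70) and in sgCtrl at *NR2F6*.

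Among the receptors of retinoic acid, *RARA* (ENSG00000131759.18, chr17:40309180-40357643, plus strand), the broadly expressed receptor, carried 19 peaks in sgCtrl and 17 in sgSNHG1. Its tallest promoter peak, at an internal start site, held 226 and 237 fragments (0.27, 0.01 to 0.54), and its fold enrichment was nearly the same in both lists, at 4.94 and 4.88. Over the 16 pairs the ratios ran from -0.45 to 0.76, with 5 intervals above 0 and 1 below. A promoter peak of sgSNHG1 at chr17:40322238-40323560, with 160 fragments, overlapped 2 sgCtrl peaks, with 134 (0.46, 0.12 to 0.80) and 109 fragments (0.76, 0.40 to 1.12). Its summit, at 40322559, lay near that of the former (40322499) and away from that of the latter (40323171). The ratio of 0.76 thus compares summits at unlike positions. At another promoter peak, chr17:40350641-40350945, 122 fragments in sgCtrl stood against 176 in sgSNHG1 (0.73, 0.39 to 1.08). An exonic peak at chr17:40330887-40331367 went the other way, with 164 against 104 fragments (-0.45, -0.82 to -0.09).

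Upstream of *RARA*, the sgSNHG1 list held 2 peaks that the sgCtrl list lacked. They had 79 and 67 fragments and summits at positions -5692 and -4392 relative to the canonical start. The first was the 414th of the 10403 unmatched sgSNHG1 peaks by −log10 p. In sgCtrl, 3 peaks of 42, 74 and 55 fragments were unmatched. The internal peak with the direct repeat shown above held 111 and 85 fragments (-0.18, -0.60 to 0.24), so that its ratio did not differ from the median of all pairs by more than the counting error.

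*RARG* (ENSG00000172819.17, chr12:53210567-53232980, minus strand) had 6 peaks in sgCtrl and 2 in sgSNHG1. Both peaks at its start remained, with 77 and 58 fragments over the first exon (-0.20, -0.72 to 0.31) and 69 and 46 just upstream (-0.38, -0.95 to 0.18). The local background there was lower in sgSNHG1 by 0.36 and 0.38 on the relative log2 scale. No overlap was found for 4 of the 6 sgCtrl peaks, against 38.5% of all sgCtrl peaks. Of these 4 peaks, 1 lay in an exon at the 3′ end (46 fragments), 2 were intronic (71 and 60) and 1 lay upstream, at position -10289 relative to the start (49). The strongest was the intronic promoter peak shown above, near a start site of a shorter transcript, at position 3309 by −log10 p among the 24543 sgCtrl peaks without an sgSNHG1 peak. The fold enrichments of these peaks, 2.36 to 3.43, reached no higher than percentile 40.5 of the list.

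*RXRA* (ENSG00000186350.12, chr9:134317098-134440585, plus strand), the common partner of the RAR proteins, is 123488 bp long and held 33 of the 68 peaks in sgCtrl and 27 of the 59 in sgSNHG1. Most were intronic and of low fold enrichment, the highest being 3.42 in sgCtrl and 3.23 in sgSNHG1. Their summit fragments were mostly above the list medians of 55 (sgCtrl) and 52 (sgSNHG1). The local background was high, for example 61.4 at the sgCtrl peak with 167 fragments, against a genome-wide background of 4.89 in sgCtrl. No overlap was found for 15 of the 33 sgCtrl and 8 of the 27 sgSNHG1 peaks of *RXRA*, against 38.5% and 20.8% of all peaks. The 19 pairs had a median of 0.00, from -0.61 to 0.45. The tallest promoter pair held 126 and 92 fragments (-0.25, -0.65 to 0.15). The promoter peak nearest to the canonical start, with its summit 479 bp after it in sgCtrl, held 84 and 69 fragments (-0.08, -0.56 to 0.40). A peak just upstream, with its summit at position -618, held 95 fragments in sgCtrl and was divided in sgSNHG1 into peaks of 59 (-0.48, -0.98 to 0.00) and 54 fragments (-0.61, -1.12 to -0.11). An intragenic peak at chr9:134404965-134405393 held 167 and 108 (-0.42, -0.79 to -0.06), and a peak in an intron near the 3′ end 80 and 95 (0.45, 0.01 to 0.90). The pairs within 5 Mb of the gene had a median of -0.21, and the region had 0.706 times as many peaks in sgSNHG1. The whole sgSNHG1 list, with 50119 peaks, was likewise shorter than the sgCtrl list, with 63699. Set against that region, the tallest promoter pair was at -0.04 (-0.44 to 0.36). The part of the region in the *RXRA* values was not tested.

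*RARB* (ENSG00000077092.20, chr3:24687887-25597932, plus strand), itself a classic target gene of retinoic acid, had no peak in either list over 910046 bp of gene body or within 50 kb of it. The nearest sgCtrl peak lay 66188 bp and the nearest sgSNHG1 peak 66051 bp from the gene body, and they were 162938 and 162801 bp from its nearest start site. A peak below the threshold of the authors (p of 1e-06) would not have been listed.

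*CRABP2* (ENSG00000143320.9, chr1:156699606-156705816, minus strand), which delivers retinoic acid to RARs and is a target gene of retinoic acid, was the only one of the 10 genes with a promoter peak in 1 list alone. That peak, chr1:156706545-156706959, was in sgSNHG1 with 67 fragments (95% Poisson interval 51.9 to 85.1) at its summit. Its fold enrichment was 3.22 and its −log10 p was 16.3, and it lay 729 bp from the nearest start site. A further sgSNHG1 peak with 47 fragments lay 5034 bp from it. The nearest sgCtrl peak was 22321 bp from a start site. A promoter peak in sgSNHG1 only was seen at 4.24% of all protein-coding genes with a promoter peak, and in sgCtrl only at 6.61%, and the latter at 0 of these 7 genes. It was the 1154th of the 10403 unmatched sgSNHG1 peaks by −log10 p, and its fold enrichment lay at percentile 30.7 of its list.

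The surroundings of *CRABP2* differed by side. Within 50 kb, 12 pairs belonged to neighbouring genes or intergenic sequence. On the downstream side the ratios of 3 pairs had intervals below 0, with 198 fragments in sgCtrl against 110 and 85 in the 2 sgSNHG1 peaks that overlapped the same sgCtrl peak, and 276 against 190 at the third pair (-0.33, -0.61 to -0.06). On the upstream side 4 pairs had intervals above 0, among them the peaks at the starts of *METTL25B* (185 and 224 fragments, 0.48, 0.19 to 0.77) and *HDGF* (431 and 457 fragments, 0.29, 0.10 to 0.48). The local background moved the same way, lower by 0.29 to 0.50 at those downstream pairs and higher by 0.23 to 0.32 at those upstream pairs, and its part in these ratios was not tested.

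*CYP26A1* (ENSG00000095596.12, chr10:93073475-93077885, plus strand), an enzyme that is strongly induced by retinoic acid, had no peak within 10 kb in either list. Within 50 kb the sgCtrl list held 6 peaks and the sgSNHG1 list 1. The peak shared by both lay at the start of *CYP26C1-DT*, a non-coding gene beside the related enzyme gene *CYP26C1*, with 31 and 34 fragments (0.34, -0.41 to 1.09). The other 5 sgCtrl peaks were unmatched, 3 of them on the upstream side with 28, 40 and 43 fragments and 2 downstream with 25 and 36. The last of these had a fold enrichment of 6.01, at percentile 83.7 of its list. Of all sgCtrl peaks, 38.5% were unmatched. *CYP26C1* itself had 4 promoter peaks in sgCtrl and 1 in sgSNHG1. The highest of them in sgCtrl had 43 fragments, as did the upstream peak given here. *CYP26B1* (ENSG00000003137.9, chr2:72129238-72147862, minus strand) had 4 peaks in sgCtrl and 3 in sgSNHG1 within 50 kb, of which 2 pairs overlapped. They held 51 and 34 fragments (-0.38, -1.05 to 0.28) and 37 and 33 (0.04, -0.68 to 0.76), which differ by no more than the counting error.

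**Figure D4:**
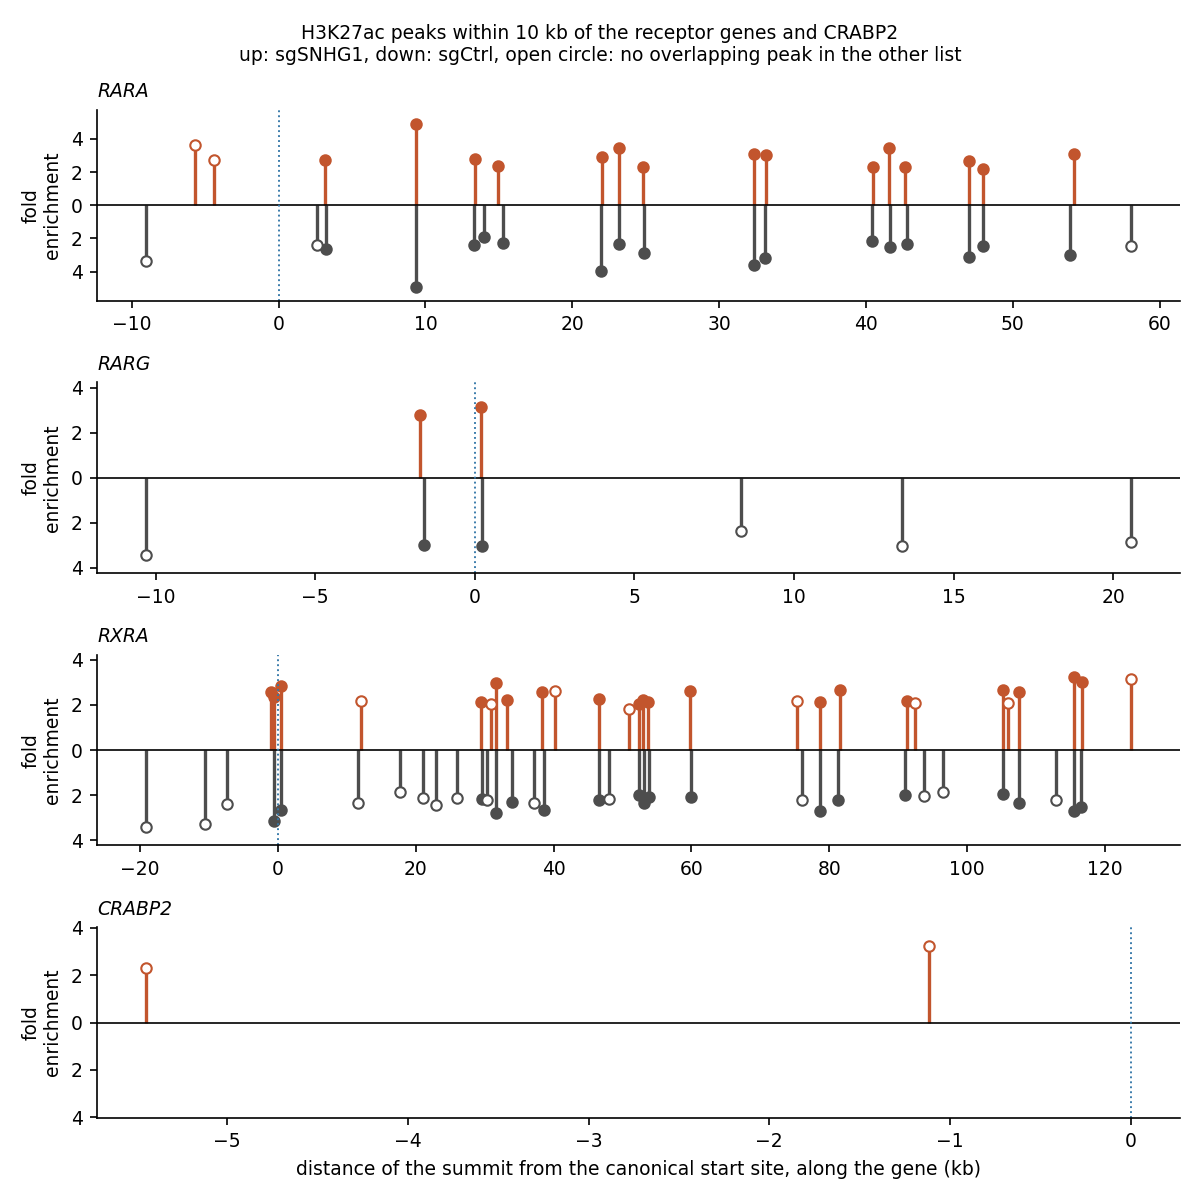
H3K27ac peaks within 10 kb of *RARA*, *RARG*, *RXRA* and *CRABP2*, by distance of the summit from the canonical start site (dotted line), in kb along the gene. Bars give the fold enrichment in sgSNHG1 (orange, upward) and sgCtrl (grey, downward), and open circles mark peaks of 1 list only, of which *RARG* has 4 in sgCtrl, *CRABP2* has 2 in sgSNHG1, and *RXRA* has 15 and 8.

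Taking each gene by its tallest pair of overlapping promoter peaks, 3 of the 6 genes with one (*NR2F1*, *NR2F2* and *RARA*) had an interval above 0 and 0 had one below. Among 12922 protein-coding genes the shares were 34.3% and 4.88%, and the median ratio was 0.26, so that a ratio somewhat above 0 was usual at promoters. With scaling to the genome-wide background, *NR2F2* alone kept an interval above 0 (0.71, 0.26 to 1.16), *RARA* was at 0.14 (-0.13 to 0.41), and *NR2F6* had an interval below 0 (-0.43, -0.75 to -0.10). The median of the 6 genes was 0.04 relative to the median of all pairs. *NR2F1* and *NR2F2* lay above the upper quartile of all genes (0.50), and *NR2F6*, *RARG* and *RXRA* below the lower quartile (-0.02). The place of *NR2F2* depends on the pair taken. Its pair here, with 70 and 109 fragments, was the tallest in sgSNHG1 but not in sgCtrl. The promoter peak that was tallest in sgCtrl held 74 and 79 fragments (0.30, -0.18 to 0.78), below that upper quartile.

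A wider list of 37 genes of retinoid metabolism, the other NR2 receptors, receptor coregulators and known retinoic acid targets was examined beside them. Promoter peaks were in both lists at 25, in sgCtrl only at 3, in sgSNHG1 only at 3 and in neither at 6. Of all 20005 protein-coding genes, 14734 had a promoter peak in either list. Among those 14734 it was in sgCtrl only at 6.61% and in sgSNHG1 only at 4.24%. Those in sgSNHG1 only were *RBP4*, which encodes a retinol carrier (25 fragments), *DHRS3*, an enzyme that returns retinal to retinol (34 fragments at its highest promoter peak), and *NR2E1*, the receptor TLX of neural stem cells (20 fragments). Those in sgCtrl only were *RBP7*, a retinol-binding protein (28 fragments), the liver receptor *HNF4A* (32) and the transglutaminase *TGM2*, a known target (45). The lowest summits in the lists held 19 (sgCtrl) and 18 (sgSNHG1) fragments, so several of these peaks were near the floor. A peak below the threshold in the other list would not have been listed. Those with a promoter peak in neither list included *LRAT*, *BCO1*, *ALDH1A1*, *RXRG* and *HOXB1*.

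Over the 24 genes of the wider list with a pair of overlapping promoter peaks, the median relative log2 ratio was 0.27, against 0.26 of all genes. Of the 24 intervals, 8 were above 0 and 1 below, against 34.3% and 4.88% of all genes with such a pair. The highest ratios were those of 2 retinol dehydrogenases, *RDH11* (41 and 77 fragments, 1.12, 0.55 to 1.70) and *RDH10*, which makes retinal for retinoic acid synthesis (68 and 107 fragments, 0.86, 0.41 to 1.32), followed by *NR2C1*, the orphan receptor TR2 (60 and 81 fragments, 0.64, 0.14 to 1.15). The lowest were those of *CDX1*, a homeobox target of retinoic acid (131 and 84 fragments, -0.44, -0.85 to -0.03), the corepressor *NRIP1* (285 and 217 fragments, -0.19, -0.45 to 0.07) and *ALDH1A3*, which makes retinoic acid (67 and 54 fragments, -0.11, -0.65 to 0.43). At *RDH11* and *RDH10* the local background was also higher in sgSNHG1, by 0.48 and 0.49, and its part was not tested.

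**Figure D5:**
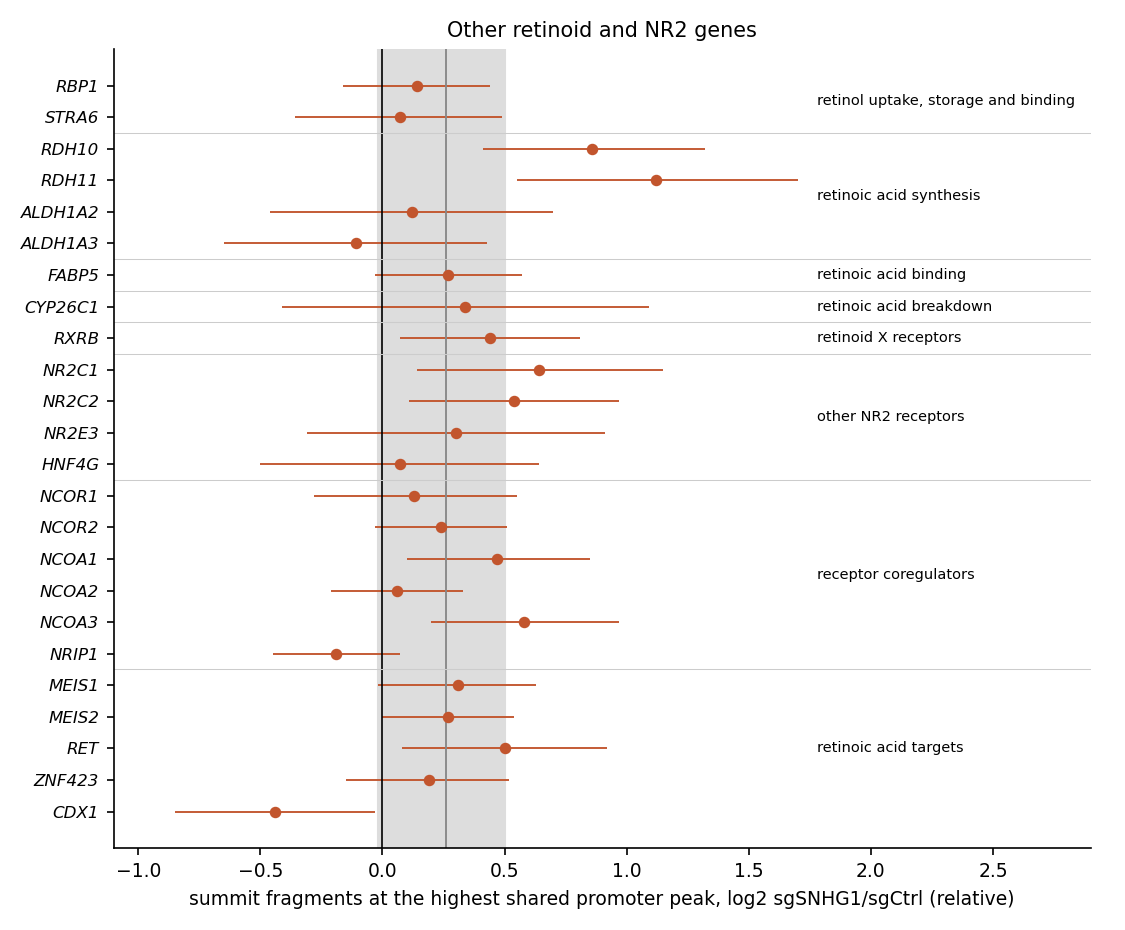
Relative log2 ratio of summit fragments at the tallest pair of overlapping promoter peaks for 24 genes of the wider list, grouped by role, with 95% counting intervals. The grey band is the range between the quartiles of 12922 protein-coding genes (-0.02 to 0.50) and the grey line their median (0.26). The genes to the right of the band include *RDH11*, *RDH10* and *NR2C1*, and those to the left are *CDX1*, *NRIP1* and *ALDH1A3*.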

How the data were processed

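H3K27ac ChIP-seq of 2 sgCtrl and 2 sgSNHG1 samples was analysed. The authors removed adaptors and low-quality reads, aligned the rest to GRCh38 with BWA and pooled the 2 samples of each group. They then ran MACS2 at a p-value of 1e-06. Versions of these tools are not given in the sources used here. The deposited fold enrichment is the ratio of summit to local background within a pooled list, and the deposited −log10 p grows with depth. The deposited summit position was used, and no input library is named. Values per sample were not analysed here, and the depth per sample is unknown.

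Summit fragments and local background were recovered from fold enrichment and −log10 p, assuming a pseudocount of 1 and a Poisson distribution. Whole fragments within a tolerance of 0.01 of a step came out for 99.9% of peaks in both lists. Recovery, overlaps and the motif search were tested on simulated data. Genes came from GENCODE release 44, overlap meant at least 1 shared base, and promoter peaks lay within 3 kb of any start site of the gene. Intervals are Wilson for shares and exact for counts and count ratios (95%). Computations used Python 3.11.15 with scipy 1.17.1, pandas 2.3.3 and numpy 2.4.6, and matplotlib 3.10.9 drew the figures.

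The genes and lists were chosen with earlier results of these data known. From the wider list the text names genes with a promoter peak in 1 list or neither and the 3 highest and 3 lowest ratios. Some genes under this rule or among the markers are counted but not reported here by name. Alternatives were other windows, lists of equal size, a stricter −log10 p (10 or more), other overlaps, scalings, promoter widths and percentile measures, and a 500 bp motif window. Leaving out *RXRA* was added after seeing the data.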

Additional observations from a re-analysis of the deposited data

How the results depend on the processing

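No paired analysis was possible because the deposited lists hold no values per replicate, and for the same reason no replicate could be left out. Of 60 alternative values, 52 lay within the error of the value reported. Among these, the median relative log2 ratio at the pairs of the 10 genes went from 0.12 to -0.01 with scaling to the genome-wide background. The ratio of peak numbers at the 10 genes was 1.04 in place of 0.868 when the sgCtrl list was reduced to the size of the sgSNHG1 list, so that the lower number of peaks rests on the longer sgCtrl list. Without *RXRA*, which holds 33 of the 68 sgCtrl peaks, 77.1% of the sgCtrl peaks were overlapped, in place of 66.2%. The change in percentile of the highest peak (sgSNHG1 minus sgCtrl) turned from -3.34 to 3.44 at *RARA*, from -11.8 to 3.05 at *RARG* and from -9.2 to 11.0 at *RXRA* when peaks up to 50 kb away were included, since the highest peak was then another peak. The rise in percentile of *NR2F1*, 13.9, was 24.8 by summit fragments and 36.8 by −log10 p, and that of *NR2F2*, 3.75, was 18.2 by summit fragments. With 2 pooled lists from clones, differences between clones and effects of the guide RNAs cannot be told apart.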
